A study of Mus musculus with 12 samples.

Results

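D2 projection neurons of the striatum were examined in single-nucleus RNA sequencing data from dissected cortex, as nuclei that carried transcripts of the striatal genes Rgs9 and Pde10a and of the dopamine D2 or adenosine A2a receptor. A nucleus was a member if it held at least 2 unique molecular identifiers (UMIs, the count of captured transcript molecules) of Rgs9, at least 4 of Pde10a, at least 1 of Gad1 and Gad2 together, at least 1 of Drd2 and Adora2a together, none of Drd1 and at most 1 of Slc17a7. Of the 78743 barcodes in the files, 71914 had at most 12000 UMIs and at most 1% mitochondrial UMIs, and 650 of these were members. No barcode was shared between animals. The cortices came from 12 mice aged 21 days. They were 6 wild types (WT) and 6 heterozygotes (Het) for the S710fsX frameshift of Myt1l, a neuronal transcription factor, on a C57BL/6 background, with 3 males and 3 females of each genotype. Mice of both genotypes had received a pair of AAV9 vectors in the ventricles as newborn pups, one with the hyPB transposase and one with a tdTomato cargo. They were taken from 4 litters, and no label ties an animal to a litter. The frameshift is present in every cell of the Het mice.

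D2 projection neurons are GABAergic cells of the striatum whose axons begin the indirect pathway of the basal ganglia. They respond to dopamine through the inhibitory D2 receptor and to adenosine through the stimulatory A2a receptor, and they use enkephalin, made from Penk, as a peptide transmitter. Their D1 counterparts begin the direct pathway and make substance P and dynorphin, from Tac1 and Pdyn.

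The tissue is labelled cortex, so the identity of the members was checked with genes that the rule did not use. Penk carried at least 1 UMI in 320 of the 650 members (49.2%, 95% Wilson interval 45.4 to 53.1%, at a median of 4601 UMIs per nucleus). In excitatory nuclei, defined by at least 2 Slc17a7 UMIs and none of Gad1 or Gad2, the share was 0.576% at a median of 6936 UMIs, although these nuclei were deeper. In other GABAergic nuclei, defined next, it was 3.24% at a median of 3176 UMIs. Ppp1r1b, which encodes the phosphatase inhibitor DARPP-32, was found in 20.0% of members, in 1.14% of excitatory nuclei and in 0.232% of 1295 other GABAergic nuclei (at least 2 UMIs of Gad1 and Gad2 together, no Rgs9 and at most 1 UMI of each of Pde10a and Slc17a7). The peptides of the direct pathway were rare among members, with Tac1 in 3.69% and Pdyn in 0.769%. Of the 320 members with Penk, 8 also held Tac1 or Pdyn. The intervals cover counting error only. By these genes the members carried the transcripts of indirect-pathway neurons, in tissue taken as cortex.

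Markers of other cell types were low in the members. The summed level of 7 excitatory neuron markers was 109 ± 136 CPM (counts of an animal's D2 nuclei scaled to a common total; mean ± SD over 12 animals), against 2399 ± 321 CPM in excitatory nuclei. The summed level of 8 cortical interneuron markers was 223 ± 230 CPM, against 5648 ± 1405 CPM in the other GABAergic nuclei, and Pvalb was at 0. The 3 cholinergic markers summed to 1.70 ± 2.59 CPM, with Slc18a3 at 0. The 5 oligodendrocyte markers were the highest of the glial lists at 103 ± 83.5 CPM, near the 83.3 ± 17.3 CPM of excitatory nuclei.

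The receptors that define the rule were unevenly captured. Drd2 alone was found in 384 members, Adora2a alone in 22 and both in 244. Penk was found in 57.4% of the members with both receptors (median 5002 UMIs), in 44.3% of those with Drd2 alone (median 4439 UMIs) and in 45.5% of those with Adora2a alone (median 3817 UMIs). The members with a single receptor thus carried Penk far more often than the 272 D1 nuclei, which were chosen by the mirror rule of at least 1 Drd1 UMI and no Drd2 or Adora2a, and of which 1.84% held Penk at a median of 5352 UMIs. At the limit itself, 131 members had exactly 1 UMI of Drd2 and Adora2a together and 35.1% of them held Penk, while 6.10% did of the 869 nuclei that met every other limit without either receptor or Drd1. Just inside and outside the limit on Rgs9, Penk was found in 31.3% of 99 and 27.0% of 74 nuclei, and at that on Pde10a in 28.6% of 14 and 16.7% of 6. At the limit on Gad1 and Gad2 the shares were close, with Penk in 45.7% of the 197 nuclei just inside and in 48.2% of the 189 just outside. Of the 15 members with the 1 permitted UMI of Slc17a7, 53.3% held Penk, against 33.3% of the 3 nuclei just outside. The 10 nuclei with 1 UMI of Drd1 that otherwise met the rule held Penk in 40.0%.

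The share of D2 nuclei was about 2.02-fold higher in Het than in WT cortex. Members were 0.190% of nuclei in the lowest WT animal, with a median of 0.545% and a highest value of 1.09%. In Het animals the lowest was 0.953%, the median 1.17% and the highest 1.501%. All 6 Het animals lay above the WT median and 3 lay above every WT animal, so the ranges overlapped only through 1 WT female. The mean was 0.600% ± 0.322 in WT and 1.21% ± 0.231 in Het (SD, n = 6 each), a difference of 0.611 percentage points (two-sided exact permutation test over 924 relabellings, p = 0.00866; 0.0260 after Benjamini-Hochberg adjustment over 6 shares).

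**Figure D1:**
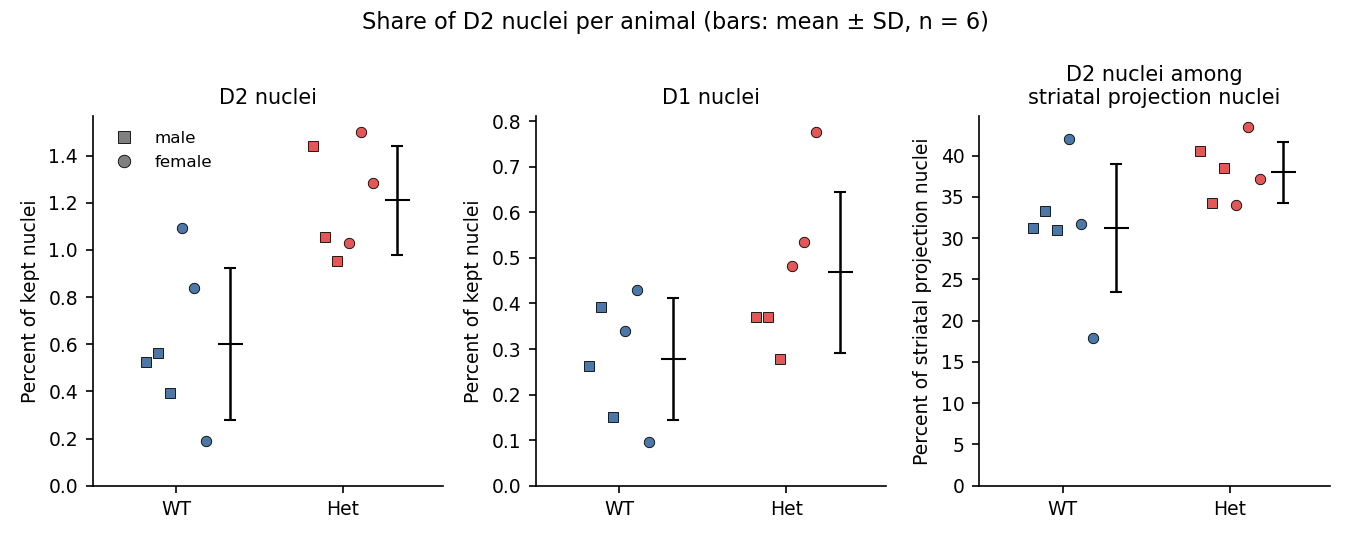
Percent of nuclei per animal by genotype, with D2 nuclei and D1 nuclei as a percent of kept nuclei and D2 nuclei as a percent of striatal projection nuclei; squares are males, circles are females and bars are mean ± SD of 6 animals. Het animals sit between 0.953% and 1.501% for D2 nuclei, while 5 of the 6 WT animals sit below all of them.

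The difference had the same direction in each sex. In males the mean share was 0.494% ± 0.0905 in WT and 1.15% ± 0.258 in Het (n = 3 each, exact permutation p = 0.1, the smallest that 3 against 3 allows). In females it was 0.707% ± 0.465 in WT and 1.27% ± 0.236 in Het (exact permutation p = 0.2). The sexes differed in the Het effect by 0.0910 percentage points (exact permutation p = 0.79). The spread among WT females came from 1 animal with 12 members and 1 with 45.

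Other striatal nuclei were more frequent in Het cortex too. The share of D1 nuclei was 0.279% ± 0.134 in WT and 0.469% ± 0.176 in Het, a difference that did not pass the test (exact permutation p = 0.0606, n = 6 each, adjusted 0.0831). Nuclei with the same Rgs9, Pde10a, Gad1, Gad2 and Slc17a7 limits but neither receptor class were 0.926% ± 0.248 in WT and 1.47% ± 0.162 in Het (exact permutation p = 0.00433, n = 6 each, adjusted 0.0260). All 1804 striatal projection nuclei together, receptors aside, were 1.82% ± 0.662 of nuclei in WT and 3.17% ± 0.405 in Het (exact permutation p = 0.00649, n = 6 each). Among them the D2 fraction averaged 31.2% ± 7.74 for WT and 38.0% ± 3.67 for Het, and this difference did not pass the test (exact permutation p = 0.0693, n = 6 each, adjusted 0.0831). D2 nuclei were 67.8% ± 5.90 of D2 and D1 nuclei together in WT and 72.5% ± 6.35 in Het (exact permutation p = 0.21, n = 6 each). Against all GABAergic nuclei, D2 nuclei rose from 3.18% ± 1.69 to 6.02% ± 1.08 (exact permutation p = 0.0152, n = 6 each, adjusted 0.0303). The D2 share of all nuclei thus moved together with the share of striatal nuclei as a whole. The 2 shares are not independent, since the 650 members are among the 1804 striatal projection nuclei. How much striatum each dissection held is not recorded, and its part in the difference was not tested. The study had already reported a higher share of striatal D1 and D2 neurons in Het cortex from these animals. By staining of brain sections at this age, it also counted more neurons with DARPP-32 protein in the deep cortex of Het mice.

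Depth and free RNA were compared alongside. The median UMI count of a member averaged 4822 ± 470 for WT and 4391 ± 447 for Het (exact permutation p = 0.126, n = 6 each), and that of all kept nuclei was 5031 ± 429 and 4888 ± 516 (exact permutation p = 0.613, n = 6 each). With every nucleus thinned to 1500 UMIs, 155 members remained, with mean shares of 0.118% in WT and 0.302% in Het (exact permutation p = 0.00866, n = 6 each). Excitatory nuclei held a UMI of Drd2 or Adora2a in 1.47% ± 0.274 of nuclei in WT and 0.985% ± 0.379 in Het (exact permutation p = 0.0217, n = 6 each). Whether these UMIs were free RNA or transcripts of the excitatory nuclei themselves was not tested. Excitatory nuclei that met the limits on Rgs9 and Pde10a were 1.28% ± 0.740 in WT and 1.53% ± 0.647 in Het (exact permutation p = 0.517, n = 6 each), and 5 Het animals exceeded the median of the WT animals. The part of free RNA in the D2 share was not tested.

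The nuclei with neither receptor lay between D1 nuclei and members in direct-pathway genes, and near D1 nuclei in Penk. Ebf1, a transcription factor of the direct pathway, was found in 43.0% of the 869 nuclei with neither receptor, in 68.8% of D1 nuclei and in 2.92% of members. Tac1 was found in 19.3% of them and Penk in 6.10%. The D1 rule therefore left many nuclei with direct-pathway transcripts outside both classes, and the ratio of D2 to D1 nuclei is the ratio of captured receptors. Only 13 nuclei held Drd1 together with Drd2 or Adora2a, at a median of 6654 UMIs.

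D2 nuclei were next compared with D1 nuclei of the same animals, which asks which other transcripts divide the 2 striatal outputs in these data. Counts were summed per animal and class for the 11 animals with at least 10 nuclei of each class, which left out 1 WT female with 12 D2 nuclei and fewer than 10 D1 nuclei. The 8 genes of the rule were not tested. The test was edgeR's quasi-likelihood test with the animal as a term, and a call needed an adjusted p below 0.05 together with a log2 fold change beyond 0.2 in either direction. Of 2700 genes tested, 231 (8.56%) were called, 111 higher in D2 nuclei (4.11%) and 120 lower (4.44%). The median log2 fold change of all genes tested was -0.0035. A fit without the filter on low counts called 363 genes, 265 higher and 98 lower, of which 164 were among the 231.

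**Figure D2:**
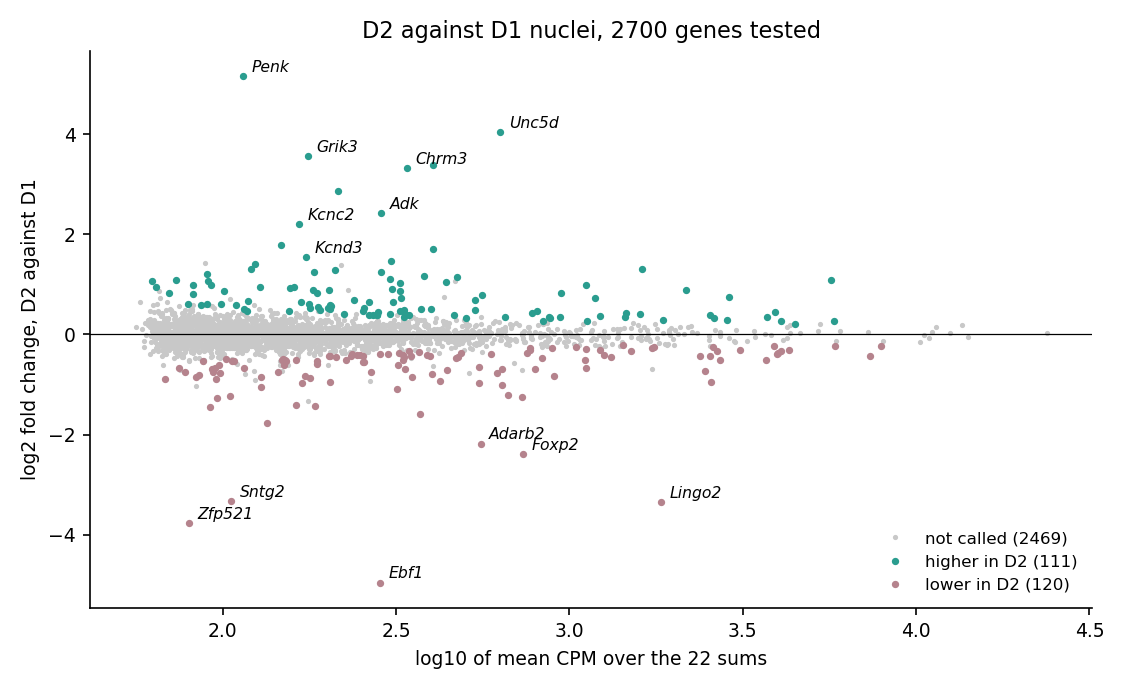
Log2 fold change of D2 against D1 nuclei (vertical axis) by the log10 of mean CPM (horizontal axis) for the 2700 genes tested; coloured points are the 111 genes called higher and the 120 called lower in D2 nuclei. Most called genes lie within 1 log2 unit of 0, with Penk the highest and Ebf1 the lowest.

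Of the 6 indirect-pathway genes on the list, Penk, Grik3 and Gprin3 passed the count filter and were called higher (4.11% of all genes were). Penk had 7 counts over all D1 nuclei and so passed the filter through the D2 nuclei, where it is high. The count, and the fold and p of Penk, are descriptions only. Penk (chr4:4133531-4138819, mm10, minus strand) was at 111 to 260 CPM in D2 nuclei and at 0 to 13.7 CPM in D1 nuclei of the 11 animals, so the classes did not overlap. It was 35.8-fold higher (log2 fold change 5.16 ± 0.29, SE; edgeR adjusted p = 4.23e-15). The log2 fold change was 5.81 without the third Het female and 3.09 under the paper's limits on nuclei, which left 3 Het animals. Grik3, a kainate receptor subunit, was at 184 to 321 CPM in D2 and 0 to 142 CPM in D1 nuclei (log2 fold change 3.57 ± 0.36, edgeR adjusted p = 1.49e-05), with values of 2.71 under those limits and 4.26 without the nuclei of highest doublet score. Gprin3, a membrane protein that acts with G-protein-coupled receptors, was higher by 0.72 ± 0.11 on the log2 scale (edgeR adjusted p = 2.31e-05), with overlapping ranges.

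The other 3 genes of that list were too low for the test. The orphan receptor Gpr6 had 43 counts in D2 nuclei and 0 in D1 nuclei, which makes the pooled level at least 6.71-fold higher against a floor of 3 counts over all D1 nuclei (2.00 CPM). It was at 4.11 to 49.0 CPM in the D2 nuclei of the 11 animals. The orphan receptor Gpr52 had 108 counts in D2 and 2 in D1 nuclei. Sp9, a transcription factor of the indirect-pathway lineage, had 53 and 3. Each of these genes was higher in the D2 nuclei in at least 10 of the 11 animals.

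Of 8 direct-pathway genes on the list only Ebf1 passed the filter, through the D1 nuclei, where it is high (chr11:44617317-45008091, mm10, plus strand), at 0 to 64.2 CPM in D2 nuclei and 177 to 634 CPM in D1 nuclei (log2 fold change -4.96 ± 0.44, edgeR adjusted p = 1.97e-05). Without the third Het female the value was -6.01, in DESeq2 -5.79 and under the paper's limits -7.65. The fold and p of Ebf1 are descriptions only, since the D1 nuclei carried it through the filter. Tac1 was at 0 to 19.8 CPM in D2 and 50.7 to 112 CPM in D1 nuclei, and Pdyn at 0 to 6.33 CPM in D2 and 37.2 to 130 CPM in D1 nuclei. Both were higher in D1 nuclei in all 11 animals. Chrm4, a muscarinic receptor of direct-pathway neurons, was listed at 0 in both classes.

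**Figure D3:**
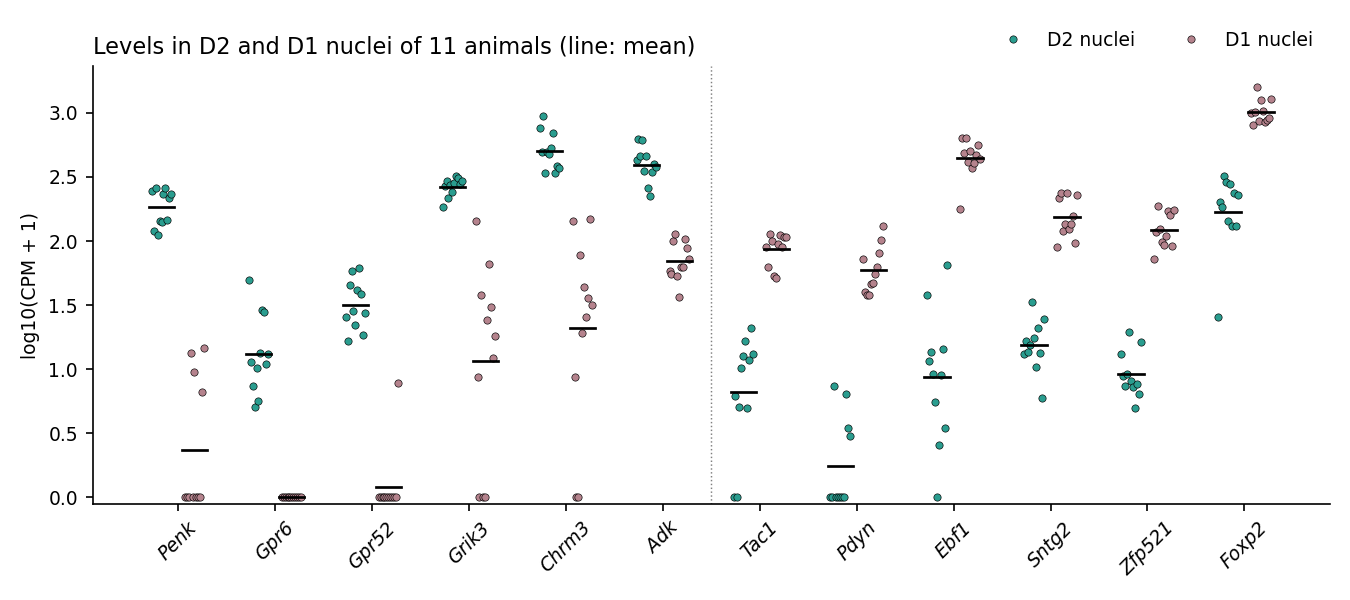
Levels of 12 genes as log10(CPM + 1) in D2 and D1 nuclei of 11 animals, 1 point per animal and class, with lines at the means of the plotted values; genes left of the dotted line were higher and those right of it lower in D2 nuclei. Gpr6 had no count in D1 nuclei, and Penk, Tac1, Pdyn and Ebf1 do not overlap between the classes.

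The start regions of genes from both pathways are shown because Gpr6 and Tac1 each hold a match to the cyclic AMP response element while they divide the classes in opposite directions. The windows are the 250 bases before the RefSeq start site (GRCm38.p6), 5′ to 3′ on the strand of the gene, at chr10:41072291-41072540 (minus strand) for Gpr6 and chr6:7554811-7555060 (plus strand) for Tac1, with the match in capitals.
Gpr6: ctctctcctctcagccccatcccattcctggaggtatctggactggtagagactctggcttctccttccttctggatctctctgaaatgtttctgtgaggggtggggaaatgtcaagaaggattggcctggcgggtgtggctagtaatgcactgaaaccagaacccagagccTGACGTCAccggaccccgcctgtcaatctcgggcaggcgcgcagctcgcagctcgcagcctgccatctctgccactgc
Tac1: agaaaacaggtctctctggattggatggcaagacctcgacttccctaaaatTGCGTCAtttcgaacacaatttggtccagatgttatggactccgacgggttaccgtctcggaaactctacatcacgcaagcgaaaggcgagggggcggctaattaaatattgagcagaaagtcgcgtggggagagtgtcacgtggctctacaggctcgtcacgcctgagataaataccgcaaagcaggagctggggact
The motifs searched on both strands were TGACGTCA and TGCGTCA, and some windows hold both. TGACGTCA stood 78 to 71 bases before the start of Gpr6 and TGCGTCA 199 to 193 bases before that of Tac1. Of 32851 such windows of all genes, 1.55% held the first 1.75% the second and 3.23% either. Of 17 genes of both pathways searched, 13 had a window and 3 held a match, the third being Isl1, a direct-pathway gene. A match is a description of these letters and not of a bound site.

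The 10 genes with the smallest p in each direction are described next. Adk, the adenosine kinase that clears adenosine, was at 223 to 622 CPM in D2 nuclei and 35.9 to 112 CPM in D1 nuclei, without overlap (log2 fold change 2.43 ± 0.15, edgeR adjusted p = 1.05e-14). The kinase Prkd1 was higher by 1.47 ± 0.13, the glycosyltransferase Galnt17 by 1.06 ± 0.11 and the adhesion molecule Dscaml1 by 1.24 ± 0.13 on the log2 scale. The transcription factor Zfhx3 was higher by 1.10 ± 0.13, the calcium channel subunit Cacnb2 by 0.74 ± 0.08, the guidance cue Sema3e by 1.02 ± 0.13, the sarcoglycan Sgcz by 1.08 ± 0.09 and Vat1l by 1.42 ± 0.18. Under the paper's limits Galnt17, Zfhx3 and Sema3e were not called. Each of these 9 genes was higher in the D2 nuclei of all 11 animals, as was Penk, the first of the 10. The largest upward differences outside this rule and the lists, named after their values were seen, were those of the netrin receptor Unc5d (4.04 ± 0.42) and the phosphatase Ptprm (3.39 ± 0.37).

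The 10 genes with the smallest p among those lower in D2 nuclei were lower in all 11 animals. They too were picked by small p, so this adds no support. Sntg2, a syntrophin, was at 4.96 to 32.2 CPM in D2 and 88.7 to 236 CPM in D1 nuclei (log2 fold change -3.33 ± 0.20, edgeR adjusted p = 5.98e-15), and the value was -4.32 under the paper's limits. Zfp521, a zinc finger transcription factor, was at 4.01 to 18.4 CPM in D2 and 71.0 to 186 CPM in D1 nuclei (-3.77 ± 0.24, edgeR adjusted p = 1.99e-14). Both genes passed the count filter through the D1 nuclei, where they are high, so their tests are descriptions only. Both were also called without that filter, in a fit to the same counts. The median log2 fold change of all genes was 0.199 in that fit, and it adds no separate support. Synaptic genes were among the rest, with the ligand Nrg3 at -0.96 ± 0.08 (-1.59 under the paper's limits), the metabotropic glutamate receptor Grm8 at -0.97 ± 0.11 and the kainate receptor subunit Grik2 at -0.50 ± 0.06. The protease inhibitor Serpine2 was at -1.77 ± 0.17, the glycosyltransferase Galnt18 at -1.08 ± 0.12, and the transcripts 6530403H02Rik and Gm10754 at -1.59 ± 0.15 and -0.83 ± 0.09.

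Receptor and channel families held calls in both directions. Of 28 glutamate receptors and postsynaptic scaffolds tested, 2 were called higher (Grik3 and the scaffold Dlgap1, 0.42 ± 0.09) and 2 lower (Grik2 and Grm8), which is 14.3% against 8.56% of all genes tested, with a list median of 0.044. Under the paper's limits Dlgap1, Grik2 and Grm8 were not called (largest edgeR adjusted p over all alternatives 0.237, 0.186 and 0.62), and Dlgap1 was also not called without the animal term. Kainate receptor subunits thus went opposite ways, Grik3 higher and Grik2 lower. Grik3 passed the count filter through the D2 nuclei, where it is high, so its test and the count of this list are descriptions only. Of 23 potassium channel genes tested, 3 were called higher and 5 lower (34.8%, against 8.56% of all genes), with a list median of 0.0028. Kcnc2, a fast delayed rectifier, was at 120 to 392 CPM in D2 and 7.74 to 114 CPM in D1 nuclei (log2 fold change 2.20 ± 0.29, edgeR adjusted p = 8.53e-05), and Kcnd3, an A-type channel, was higher by 1.54 ± 0.19. Kcnb2 (-0.92 ± 0.12) and the calcium-activated Kcnn3 (-0.74 ± 0.16) were lower. Kcnc2 passed the count filter through the D2 nuclei, where it is high, so its test and the count of potassium channels are descriptions only. Kcnc2 was called in all 15 of its alternatives, which refit the same nuclei or parts of them. The muscarinic receptor Chrm3 was the only member of its family tested and was 10.03-fold higher (log2 fold change 3.33 ± 0.36, edgeR adjusted p = 9.85e-05), at 337 to 937 CPM in D2 and 0 to 147 CPM in D1 nuclei. Chrm3 also passed the filter through the D2 nuclei, where it is high, so its test is a description only. It was called in all 16 alternatives, which refit the same nuclei or parts of them and add no separate support. Among 12 genes for GABA synthesis, transport and receptors the smallest edgeR adjusted p was 0.125, and 2 had an unadjusted p under 0.05, as did 482 of all 2700 genes.

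Of 20 genes for dopamine, adenosine and cyclic AMP signalling tested, 3 were called higher and 2 lower in D2 nuclei (25.0%, against 8.56% of all genes tested), with a list median of 0.23. Gng7, the gamma subunit of the striatal G protein complex, was higher by 0.51 ± 0.11 (edgeR adjusted p = 0.00132) and the phosphodiesterase Pde4b by 0.88 ± 0.16 (edgeR adjusted p = 0.00414). The phosphodiesterase Pde7b (-0.24 ± 0.06) and the phosphoprotein Arpp21 (-0.25 ± 0.06) were slightly lower. Under the paper's limits on nuclei, which left 3 Het animals, Pde4b, Pde7b and Arpp21 changed sign (-0.0138, 0.11 and 0.0466) and Gng7 was not called. Arpp21 also lost its call without the nuclei of highest doublet score, both Arpp21 and Pde7b without the count filter, and Pde7b without the animal term. Ppp1r1b was not tested and was at 32.2 to 64.4 CPM in D2 and 24.8 to 86.7 CPM in D1 nuclei, with no separation.

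Of 14 transcription factors of the striatal lineage tested, 5 were called (35.7%, against 8.56% of all genes), among them Ebf1, which passed the filter through D1 nuclei, so the count is a description only. Zfhx3, Meis1 (0.90 ± 0.17, edgeR adjusted p = 0.000510) and Foxp1 (0.32 ± 0.06, edgeR adjusted p = 0.000365) were called higher and Foxp2 and Ebf1 lower, and under the paper's limits Zfhx3 and Meis1 were not called. Foxp1 and Foxp2, related forkhead factors, thus went opposite ways, Foxp2 by -2.40 ± 0.17 (edgeR adjusted p = 2.05e-07) from 24.5 to 319 CPM in D2 nuclei against 801 to 1595 CPM in D1 nuclei. The adhesion molecule Lingo2 was lower by 3.34 on the log2 scale (-3.34 ± 0.26), and by 5.09 under the paper's limits (-5.09). Adarb2, a marker of cortical interneurons, was lower in D2 nuclei too (-2.18 ± 0.51, edgeR adjusted p = 0.0211), at 9.36 to 775 CPM in D2 and 195 to 1314 CPM in D1 nuclei, and lost its call without the second Het female (-2.05) and without the count filter (edgeR adjusted p = 0.112). Its value was -5.45 under the paper's limits and -2.81 without the nuclei of highest doublet score. The 8 interneuron markers summed to 773 ± 318 CPM in D1 nuclei (11 animals) and 223 ± 230 CPM in D2 nuclei (12 animals), most of it Adarb2, and their part in the D2 to D1 differences was not tested.

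The last comparison asked whether gene expression within D2 nuclei differed between Het and WT animals. Between 54732 and 490114 counts per animal were available, and the Het animals had more because they had more members. Of 3378 genes tested, 0 (0%) were called by edgeR, with 220 at an unadjusted p under 0.05 and a median log2 fold change of -0.0047. DESeq2, run without the count filter on 23067 genes, also called 0, with 327 at an unadjusted p under 0.05.

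Myt1l itself (chr12:29528384-29923213, mm10, plus strand) was at 936 to 1653 CPM in WT D2 nuclei (median 1237) and at 1312 to 1692 CPM in Het D2 nuclei (median 1370). All 6 Het animals lay above the WT median, and the log2 fold change was 0.11 ± 0.12 (edgeR adjusted p = 0.932). The transcript level thus did not separate the genotypes and does not check their labels. In D2 against D1 nuclei Myt1l differed by 0.08 ± 0.07 on the log2 scale (edgeR adjusted p = 0.628).

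The gene nearest to a call was Hs3st4, a heparan sulfate sulfotransferase (chr7:123982869-124398989, mm10, plus strand). Its level was 210 to 386 CPM in WT D2 nuclei (median 350) and 449 to 679 CPM in Het D2 nuclei (median 539). The groups did not overlap, and the log2 fold change was 0.74 ± 0.15 (edgeR adjusted p = 0.0512, just outside the threshold). Over 21 alternatives the adjusted p ranged from 8.90e-05 to 0.681 and 4 called it. It was called without the count filter (8.90e-05) and without the first WT female (adjusted p = 0.0389). It was also called without the first Het female (0.0292) and without the second (0.0382). The log2 fold change fell to 0.41 under the paper's limits on nuclei and to 0.55 without the nuclei of highest doublet score. Hs3st4 was not called in either of these fits.

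The other genes with the smallest unadjusted p were not called. The neurotrophin receptor Ntrk2 was at 791 to 1126 CPM in WT and 986 to 1651 CPM in Het D2 nuclei (0.47 ± 0.12, edgeR adjusted p = 0.604), and it was called only without the count filter (adjusted p = 0.0144). Actin Actb (0.88 ± 0.24), the potassium channel tetramerization protein Kctd17 (0.67 ± 0.20) and the ubiquitin ligase Sh3rf2 (0.48 ± 0.14) had higher values in Het, each with an edgeR adjusted p of 0.630. Slc35f1 (-0.53 ± 0.14), Cep126 (-0.75 ± 0.21), Avl9 (-0.93 ± 0.27), the protease Tll1 (-0.87 ± 0.25) and the sodium-calcium exchanger Slc24a3 (-0.45 ± 0.13) had lower values, also at 0.630. In Actb, Kctd17 and Sh3rf2 every Het animal lay above every WT animal. These genes and Hs3st4 were picked by small p, so the separation adds no support. How many of all 3378 genes tested separate in this way was not counted.

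**Figure D4:**
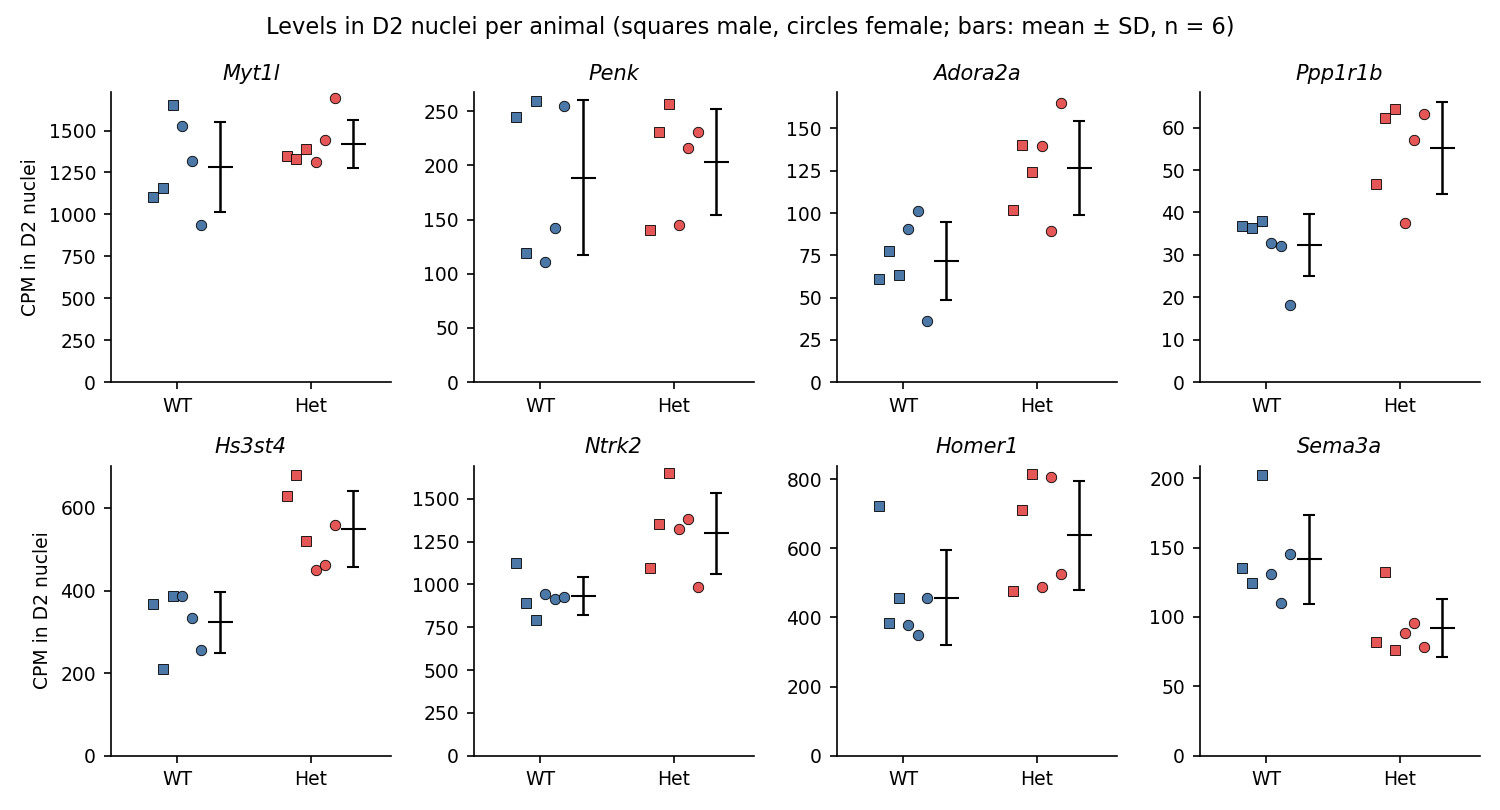
CPM of 8 genes in D2 nuclei of each WT and Het animal (vertical axis); squares are males, circles are females and bars are mean ± SD of 6 animals. Hs3st4 does not overlap between the genotypes, while Myt1l and Penk overlap widely, and none of the 8 genes was called. Ppp1r1b was tested only without the count filter.

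Genes of striatal projection neurons had mostly positive values in Het D2 nuclei, without a call. Of 14 tested, 11 had a positive log2 fold change (48.9% of all genes did), with a median of 0.20 against -0.0047 over all genes, and 3 had an unadjusted p under 0.05, as did 220 of all 3378 genes. These were the GTPase Rasd2 (0.64 ± 0.22), Gng7 (0.38 ± 0.15) and the transcription factor Bcl11b (0.34 ± 0.14), with edgeR adjusted p from 0.630 to 0.659. The summed level of all 15 genes on the list was 7577 to 9798 CPM in WT animals (median 8903) and 9065 to 10840 CPM in Het animals (median 9344), with all 6 Het animals above the WT median. The rule used none of these 15 genes, and the part of depth in their levels was not tested.

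Receptors and peptides of the D2 nuclei gave a mixed picture. Drd2, used by the rule and so only described, was at 514 to 741 CPM in WT (median 620) and 600 to 687 CPM in Het (median 647), nearly the same in both. Adora2a, also used by the rule, was at 36.4 to 101 CPM in WT (median 70.6) and 89.2 to 165 CPM in Het (median 132), with all 6 Het animals above the WT median. Penk was at 111 to 260 CPM in WT (median 194) and 141 to 257 CPM in Het (median 223), with full overlap (0.22 ± 0.22, edgeR adjusted p = 0.930). Ppp1r1b, too low for the filter, was at 18.2 to 38.0 CPM in WT (32 counts in all) and 37.6 to 64.4 CPM in Het (124 counts). In the fit without the filter its log2 fold change was 0.76 ± 0.30 (edgeR adjusted p = 0.696). Tac1 rested on 4 counts in WT and 29 in Het D2 nuclei (edgeR adjusted p = 0.696 without the filter).

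Synaptic and guidance genes were next. Of 29 glutamate receptors and scaffolds tested, 15 had positive values and the median was 0.024. The scaffold Homer1 was at 349 to 722 CPM in WT and 478 to 815 CPM in Het (0.51 ± 0.18, edgeR adjusted p = 0.630). It was called only without the count filter (edgeR adjusted p = 0.0316), and its log2 fold change was 0.0019 under the paper's limits on nuclei. Shank3 differed by 0.41 ± 0.23 (edgeR adjusted p = 0.787). Of the 22 genes the study singled out at this age, which it chose on these same animals, 19 were tested, with 0.630 as the smallest edgeR adjusted p. Of these 19, 5 had positive and 14 negative values, where 48.9% of all genes were positive. The list pools genes named for either direction, so no median is given. The study named more of them as higher in WT than in Het, on these same animals. The mostly negative count therefore adds no support. The study found its genes at this age mainly in excitatory neurons. Among them the guidance cue Sema3a was at 110 to 203 CPM in WT (median 133) and 76.2 to 132 CPM in Het D2 nuclei (median 85.5), with all 6 Het animals below the WT median (-0.62 ± 0.19, edgeR adjusted p = 0.630). Of 6 genes of the MYT1 family and its corepressors tested, 4 had positive values and the median was 0.040.

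Whether the Het effect differed between D2 and D1 nuclei was tested with the product of class and genotype. Of 3365 genes, 1 (0.0297%) was called in edgeR, Lsamp, a neuronal adhesion molecule (chr16:39984361-42181679, mm10, plus strand). In D2 nuclei of the 6 WT animals it was at 3928 to 6601 CPM (median 4992) and in those of the 6 Het animals at 4083 to 4752 CPM (median 4194), all below the WT median. In D1 nuclei of 5 WT animals it was at 2651 to 5102 CPM (mean 3458 ± 960) and in those of 6 Het animals at 3852 to 5733 CPM (mean 4714 ± 700). The Het effect was thus lower in D2 than in D1 nuclei by 0.76 on the log2 scale (-0.76 ± 0.13, edgeR adjusted p = 0.00317). Within D2 nuclei alone the Het effect on Lsamp was -0.27 on the log2 scale (edgeR adjusted p = 0.698). Without the second WT female the interaction no longer passed (adjusted p = 0.0551), and over 12 alternatives the adjusted p ranged from 0.000192 to 0.0551.

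**Figure D5:**
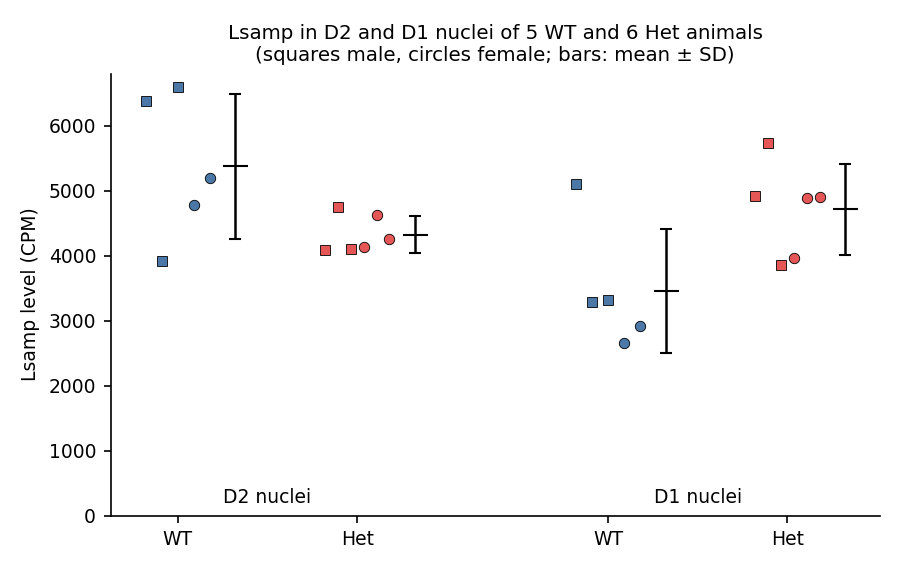
Lsamp level in CPM in D2 and D1 nuclei of the 5 WT and 6 Het animals with at least 10 nuclei of each class; squares are males, circles are females and bars are mean ± SD. Het values lie low in D2 nuclei and high in D1 nuclei, with overlap of the genotypes in both.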

How the data were processed

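The deposited matrices hold expected counts of UMIs per gene and nucleus, which the authors made with the ScaleBio workflow on mm10 without normalization, so that some entries are fractions. Per the labels, Seurat 4.3.0 and DESeq2 1.38.3 were used in the study. The members and the gene lists were chosen with earlier results of these data known.

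Nuclei were classed by raw UMIs. The study's methods name DoubletFinder for doublets, but do not say whether the deposited matrices precede that step, and no doublets were removed here. Removal of the 5% with the highest Scrublet score (scanpy 1.11.5) was an alternative. Shares were compared with exact permutation tests over animals. Counts of members were summed per animal, rounded and tested with edgeR 4.0.16 (TMM, filterByExpr, robust quasi-likelihood) with genotype alone, or with the animal and class, with DESeq2 1.42.0 as an alternative, in R 4.3.3 and python 3.11.15 with scipy 1.17.1. The transcript of the AAV was left out of library sizes and tests. P-values are two-sided and adjusted by Benjamini-Hochberg over all genes tested. Gene positions come from GENCODE M21 by identifier, for 54587 of 55336 features. The fits of Het against WT and of D2 against D1 were run on counts simulated at a single dispersion, with results not reported here. The interaction was not simulated.

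Genes were named by a rule: the lists, Myt1l, the genes the paper names for this age, for Het against WT, the 5 of lowest unadjusted p per direction where fewer than 3 were called, for D2 against D1 the 10 of lowest p per direction, and those called in the interaction. Results were recomputed with the paper's limits on nuclei, thinned counts, other member limits, no filter, sex as a covariate and without each animal. D2 sums held 54732 to 490114 counts per animal, which limits the precision for low genes. Animals came from 4 litters, so p-values measure the spread between these animals. Some genes that the rule names are not reported here.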

Additional observations from a re-analysis of the deposited data

Results flagged for a closer look

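The value of a single animal lay apart from the rest of its genotype in 3 of 48 groups of values checked, where chance gives about 1 in 20. Slc35f1 was at 911 CPM in the D2 nuclei of the third WT female, far above the other WT animals. Ppp1r1b was at 18.2 CPM in the same animal, which is 1 count in 12 members, too few to set this animal apart. Myt1l was at 1692 CPM in the third Het female, above the other Het animals.

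The Het effect on Lsamp differed between D2 and D1 nuclei by -0.76 on the log2 scale in a test of the difference itself.

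The AAV transcript lay outside the main comparisons. A tdTomato UMI was found in 32% of all members. Per animal the share was 29.6% ± 16.0 of D2 nuclei and 53.0% ± 8.80 of all kept nuclei (n = 12), lower in D2 nuclei in 12 of 12 animals by a mean of 23.4 percentage points (sign-flip exact permutation test, p = 0.000488, the smallest that 12 animals allow). D1 nuclei were about as low, at 31.0% ± 20.4 (range 0 to 71.4%, n = 12), below all kept nuclei in 11 of 12 animals. The share in D2 nuclei was 28.6% ± 20.7 in WT and 30.6% ± 11.5 in Het (exact permutation p = 0.838, n = 6 each). All animals were injected, so no level without the vector was measured.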

How the results depend on the processing

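The higher D2 share in Het cortex kept its direction and passed in 20 of 21 alternatives, and differences without each animal ranged from 0.529 to 0.709 percentage points. The exception paired animals of the same sex and number as a replicate block (0.611 points, sign-flip exact permutation p = 0.0625). No label says that the numbers pair the animals, and the check made here cannot settle it. That check used expression in D2 nuclei and not the shares. Correlations of same-numbered deviations were -0.0289 to 0.118, and not every animal correlated best with its own number. With the block the D2 share of GABAergic nuclei no longer passed either (2.84 points, sign-flip exact permutation p = 0.0625). It changed no call of the other shares it was run on or of Het against WT, where it left 0 genes called. The D2 share of striatal projection nuclei differed by 4.12 to 8.95 points without each animal, and passed without the first WT female (8.95 points). The D1 share differed by 0.128 to 0.228 points and passed without the second WT female (0.220) or the third Het male (0.228). The alternatives for the D1 share, the share with neither receptor, all striatal projection nuclei and the D2 share of GABAergic nuclei were chosen after seeing the data.

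Without the filter the median log2 fold change of all genes moved to 0.118 for Het against WT and 0.199 for D2 against D1. Genes called in Het against WT numbered 5 without the filter, 3 under the paper's limits and 0 to 1 without each animal, the 1 being Hs3st4. D2 against D1 gave 363 without the filter (265 higher, 98 lower), 57 under the paper's limits (3 Het animals only) and 188 to 240 without each animal. DESeq2 called 218 genes, of which 151 were among the 231 of the main fit (65.4% of the 231). The fit without the animal term called 176, of which 173 were among them, and 47 of the 57 under the paper's limits were. The interaction gave 5 without the filter and 0 to 2 without each animal, with 0 without the second WT female and 2 without the second Het female; it could not be fitted under the paper's limits. Under those limits the D2 to D1 log2 difference turned for Pde4b (-0.0138), Pde7b (0.11), Arpp21 (0.0466) and Lsamp (-0.23). The cause of these changes was not tested, beyond the fewer animals of the paper's limits.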

Other observations

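Genes of striatal compartments and rarer projection neurons were also measured in the members. The 6 patch genes summed to 252 ± 36.0 CPM in D2 nuclei and 305 ± 56.4 CPM in D1 nuclei, and the 4 matrix genes to 742 ± 76.5 and 688 ± 150 CPM. In D2 against D1 the smallest edgeR adjusted p was 0.504 among 2 patch genes tested and 0.182 among 3 matrix genes tested. The 5 genes of eccentric projection neurons summed to 165 ± 69.0 CPM in D2 and 307 ± 100.3 CPM in D1 nuclei, and Otof, the 1 tested, was lower in D2 nuclei (log2 difference -0.84 ± 0.15, edgeR adjusted p = 0.000205).

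The 9 genes of immature neurons summed to 36.4 to 222 CPM in WT D2 nuclei (median 136) and 68.2 to 120 CPM in Het D2 nuclei (median 109), with 0 of the 6 Het animals above the WT median. The 1 of these genes that passed the count filter had an edgeR adjusted p of 0.953.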
